A study of Mus musculus with 6 samples.

Results

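Mecom, Hlf, Meis1, Prdm16, Mllt3, Hmga2, Procr, Fgd5 and Ctnnal1 are 9 regulators and markers of self-renewal in long-term hematopoietic stem cells (HSCs), the cells that rebuild blood for the life of the animal. They were picked by name from knowledge of HSC biology, with earlier results of these data known, matched to the array through their Entrez Gene numbers, and all 9 were found among the 23185 named genes, each with 1 probe set. Expression had been measured on 6 Affymetrix whole-transcript arrays, 3 from Merit40-/- mice and 3 from wild-type (WT) mice. Per the labels, the RNA came from freshly isolated adult bone marrow of young animals in both genotypes, with 2 rounds of sorting for CD150+CD48-LSK cells. LSK stands for lineage-negative cells with Sca-1 and c-Kit on their surface, and no culture or treatment preceded extraction. The labels call the arrays biological replicates. They do not say how the Merit40 allele was made, in which cells it acts or how many mice gave each array. The p-values set a difference between genotypes against the spread between these arrays, which limma moderates with that of all named genes. Values are log2 expression levels after RMA normalization, in which 1 unit is a 2-fold step. In sorted bulk RNA, fewer cells of a type and less RNA per cell cannot be told apart.

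The deleted gene was checked first. Babam1, which encodes Merit40, a subunit of deubiquitinase complexes that cut lysine-63-linked ubiquitin chains, read 4.29, 3.87 and 4.01 on the Merit40-/- arrays, against 7.91, 8.04 and 8.05 on the WT arrays. The groups lay far apart, and Babam1 fell by 3.94 on the log2 scale (SE 0.14, adjusted p = 5.04e-05 in limma). Across all 25206 probe sets, array medians lay between 4.91 and 4.97 and correlations between arrays, which are across genes, between 0.984 and 0.988. Skeletal muscle markers stood apart on Merit40-/- replicate 1, where the 12 of them averaged 8.20 against 4.60 to 4.83 on the other arrays. The 8 osteoclast markers averaged 5.37 on Merit40-/- replicate 3 and 3.94 to 4.12 elsewhere. Ctsk (7.94) and Acp5 (7.91) stood out on that array, where 6 of the 8 were highest and 1, Calcr, was lowest.

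Self-renewal is the division of a stem cell that leaves at least 1 daughter with full stem cell potential, and in long-term HSCs it depends on a set of nuclear regulators, many of which are lowered as cells commit. Mecom and Prdm16 encode related zinc finger proteins of the PRDM family, Hlf a bZIP transcription factor of the PAR group, Meis1 a homeodomain partner of HOX and PBX proteins, and Mllt3 a chromatin reader that joins transcription elongation complexes. Hmga2 encodes a DNA-bending chromatin protein that is abundant in fetal HSCs and is held down in adult cells by let-7 microRNAs. Procr (the endothelial protein C receptor, EPCR), Fgd5 (an exchange factor for the GTPase CDC42) and Ctnnal1 (alpha-catulin, a relative of alpha-catenin) are used as markers that enrich for long-term HSCs in mice.

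The windows around the starts of Mecom and Prdm16 are shown because these genes are the related pair among the 9 and share a run of sequence there. RefSeq start windows (GRCm38.p6, 250 bases before to 50 after a start) were available for all 9 genes, 11 windows in all, with 2 each for Mecom and Mllt3. Capitals in the first 2 sequences mark the longest run shared by the Mecom window at chr3:30509710-30510009 (minus strand) and the Prdm16 window at chr4:154636824-154637123 (minus strand).
Mecom: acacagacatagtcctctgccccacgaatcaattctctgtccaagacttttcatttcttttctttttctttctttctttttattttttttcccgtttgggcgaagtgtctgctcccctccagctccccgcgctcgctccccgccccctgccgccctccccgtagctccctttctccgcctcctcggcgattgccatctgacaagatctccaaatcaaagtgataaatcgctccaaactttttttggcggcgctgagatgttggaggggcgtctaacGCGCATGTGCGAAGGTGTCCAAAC
Prdm16: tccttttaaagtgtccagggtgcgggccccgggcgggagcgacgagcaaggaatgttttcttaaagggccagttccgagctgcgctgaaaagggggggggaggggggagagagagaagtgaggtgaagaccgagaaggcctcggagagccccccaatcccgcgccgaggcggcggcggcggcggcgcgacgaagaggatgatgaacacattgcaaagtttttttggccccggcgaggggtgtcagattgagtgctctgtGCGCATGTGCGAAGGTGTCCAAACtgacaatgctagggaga
The shared run is on the same strand in both and begins at base 27 after the start of Mecom and at base 10 after the start of Prdm16. Its length of 24 bases is a minimum, since it reaches the last base of the Mecom window. Among all 32851 RefSeq windows it was found in no others than the 2 that define it, and what the shared run comes from was not tested. Over the 36 pairs of the 9 genes, the next longest shared run on either strand was 14 bases and the shortest 8 bases.

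Hlf is shown for the cyclic AMP response element TGACGTCA, in capitals, which begins 9 bases before its start in the window at chr11:90390868-90391167 (minus strand).
Hlf: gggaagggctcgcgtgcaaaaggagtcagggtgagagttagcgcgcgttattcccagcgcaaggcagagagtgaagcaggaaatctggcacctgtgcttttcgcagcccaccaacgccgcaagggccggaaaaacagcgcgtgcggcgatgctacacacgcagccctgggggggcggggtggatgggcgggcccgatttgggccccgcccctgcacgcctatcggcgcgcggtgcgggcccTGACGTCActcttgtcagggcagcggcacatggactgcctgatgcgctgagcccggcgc
This element was in 1 of the 11 windows and in 1.79% of all RefSeq windows. Motifs were searched on both strands and were chosen with the windows in view. The MEIS site TGACAG was in 3 of 11 windows (the second ones of Mecom and Mllt3, and that of Fgd5), against 19.2% of all windows. The ETS core CCGGAA was in 2 of 11 (Hlf and Meis1), against 14.9%. GACAAGAT, a part of the site bound by the Mecom product EVI1, began 52 bases before the printed Mecom start and was in 0.737% of all windows. The HLF site TTACGTAA (0.119% of all windows), the PBX-HOX site TGATTNAT (3.22%) and the GATA site AGATAA (11.2%) were in 0 of 11. The GATA and EVI1 letters share AGAT, and no matches of different motifs overlapped in the 11 windows. Such matches describe letters in these windows and were not tested as binding sites.

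Each of the 9 genes read above the level of the median gene (4.93) on every array, and no detection call was made. Their mean levels over the 6 arrays stood at or above those of 66.8% (Fgd5) to 99.4% (Meis1) of all named genes. Of the genes whose proteins define the sort, the stem cell factor receptor gene Kit averaged 11.06 ± 0.09 on Merit40-/- arrays and 10.96 ± 0.03 on WT arrays (SD, n = 3 each), with no overlap but a difference of 0.09 (SE 0.11). Slamf1, the CD150 gene, averaged 8.23 ± 0.35 on Merit40-/- arrays and 8.05 ± 0.33 on WT arrays (SD, n = 3 each). Cd48, the gene of the excluded antigen, averaged 5.39 ± 0.45 on Merit40-/- arrays and 5.42 ± 0.34 on WT arrays (SD, n = 3 each). Of the 9 measured genes of excluded antigens, 5 lay below the median gene, while the signals of Itgam (6.52) and Ly6g (6.59) averaged about as high as that of Fgd5 (6.49). Ly6a, the Sca-1 gene, was not used here. Since probe sets differ in affinity, levels of different genes are not set against each other as amounts of transcript.

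**Figure D1:**
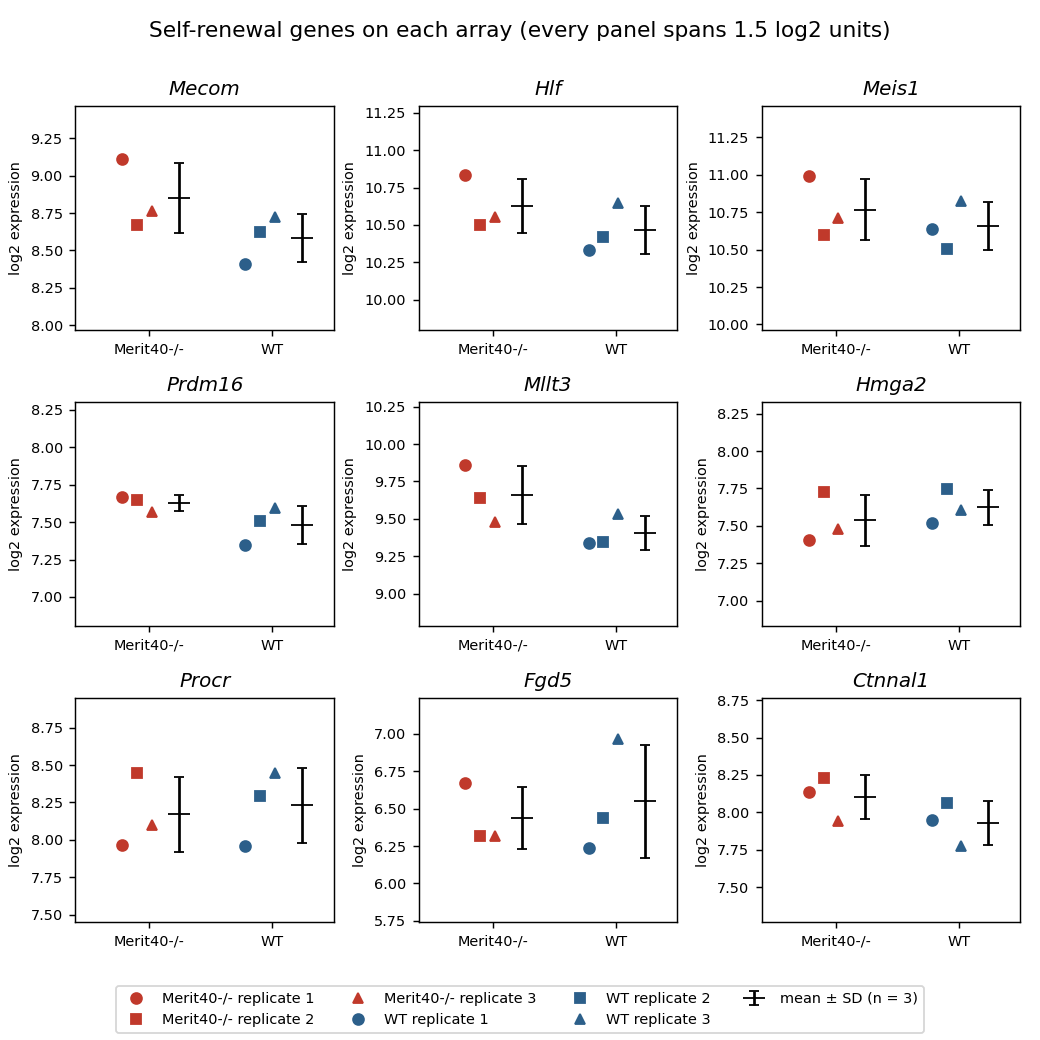
Log2 expression (y axis) of each of the 9 genes on the 3 Merit40-/- arrays (red, left) and the 3 WT arrays (blue, right). Marker shapes are replicate numbers, and black bars give mean ± SD (n = 3). Every panel spans the same 1.5 log2 units, and in each of the 9 the genotypes overlap.

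The comparison asked whether loss of Merit40 changes the expression of these regulators in freshly isolated HSCs. No change passed the test: 0 of 9 genes were called at an adjusted p under 0.05 in limma over all named genes, where 0.00431% of all genes (Babam1 alone) were called. At an unadjusted p under 0.05 in limma there were 0 of 9, against 4.22% of all genes. The arrays of the genotypes overlapped for all 9, so 0 of 9 were free of overlap, against 9.05% of all genes. Of the 9, 6 stood higher in Merit40-/- (66.7%, against 51.5% of all genes) and 3 lower, with differences (Merit40-/- minus WT, log2) from -0.11 for Fgd5 to 0.26 for Mecom. The median difference of the 9 was 0.15, against 0.0052 over all genes. In size, the difference was smaller than the range of the 3 WT arrays for 8 of the 9 genes, as for 84.8% of all genes.

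What the 6 arrays can bound is given by the intervals. All 9 genes had a 95% interval that excluded a 2-fold change either way, as had 96.4% of all genes. The upper ends reached 1.54-fold for Mecom and 1.49-fold for Mllt3, and the lower ends reached 0.669-fold for Fgd5 and 0.722-fold for Procr. The half-widths ran from 0.27 (Prdm16) to 0.47 (Fgd5) on the log2 scale, with a median of 0.33, against 0.34 over all genes. Changes of the sizes measured were not detectable with 3 arrays per genotype, which does not show that the genotypes are alike.

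**Figure D2:**
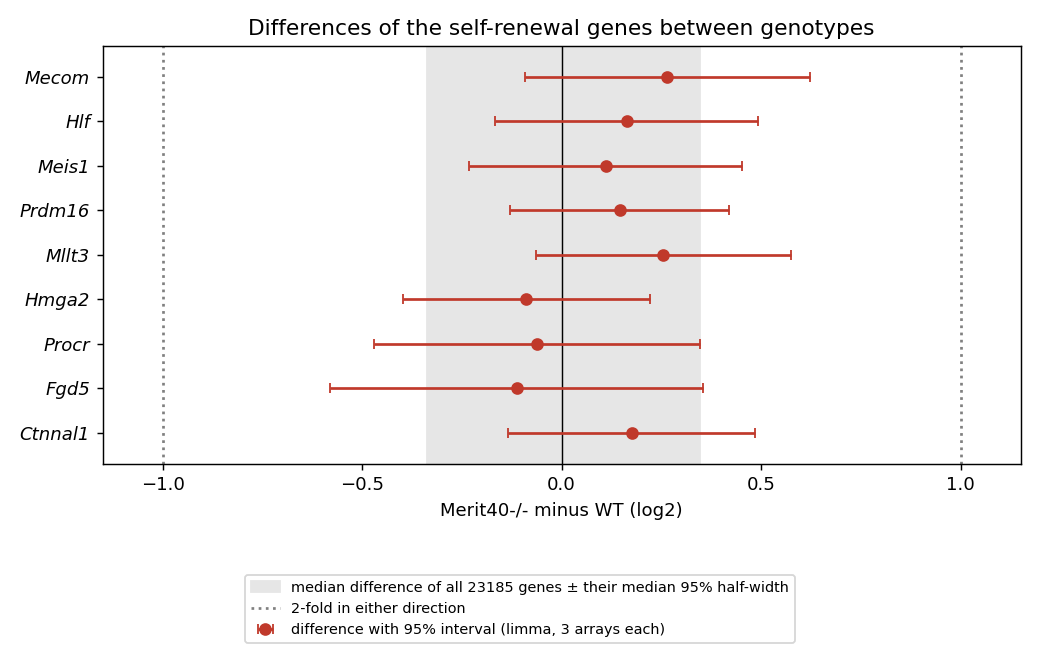
Differences between genotypes (Merit40-/- minus WT, log2, x axis) for the 9 genes, with 95% intervals from limma (3 arrays per genotype). The grey band is the median difference of all genes with the median half-width, 0.34, on each side, and the dotted lines mark 2-fold. Every interval crosses 0 and stays inside the dotted lines.

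Mecom (Entrez Gene 14013), which is needed to keep long-term HSCs in mice, had the highest difference of the 9. It read 9.11, 8.67 and 8.76 on the Merit40-/- arrays, against 8.41, 8.62 and 8.72 on the WT arrays. Merit40-/- replicate 1 was the highest of the 6, while Merit40-/- replicate 2 lay below WT replicate 3. The means were 8.85 ± 0.23 in Merit40-/- and 8.59 ± 0.16 in WT (SD, n = 3 each), a difference of 0.26 (SE 0.16, 1.20-fold, adjusted p = 0.999 in limma). This difference ran from 0.13 without Merit40-/- replicate 1 to 0.35 without Merit40-/- replicate 2. With 1 probe set for the gene, its long and short products were not told apart.

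Prdm16 (Entrez Gene 70673), the relative of Mecom that keeps HSC numbers up and limits oxidative stress in mice, varied least of the 9 over the 6 arrays (SD 0.12). It read 7.67, 7.65 and 7.57 on the Merit40-/- arrays, against 7.34, 7.51 and 7.60 on the WT arrays. The Merit40-/- arrays lay close together, and WT replicate 3 fell among them. The means were 7.63 ± 0.05 in Merit40-/- and 7.48 ± 0.13 in WT (SD, n = 3 each), a difference of 0.15 (SE 0.12, 1.11-fold, adjusted p = 0.999 in limma). This difference ran from 0.076 without WT replicate 1 to 0.20 without WT replicate 3.

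Hlf (Entrez Gene 217082), which marks and maintains quiescent HSCs, read 10.83, 10.50 and 10.55 on the Merit40-/- arrays, against 10.33, 10.42 and 10.64 on the WT arrays. WT replicate 3 stood above 2 of the 3 Merit40-/- arrays. The difference was 0.16 (SE 0.14, 1.12-fold, 95% interval 0.891-fold to 1.41-fold). It was 0.061 without Merit40-/- replicate 1, 0.097 without WT replicate 1 and 0.25 without WT replicate 3. Meis1 (Entrez Gene 17268), needed to hold adult HSCs in quiescence, read 10.99, 10.60 and 10.71 on the Merit40-/- arrays, against 10.64, 10.51 and 10.83 on the WT arrays, with the genotypes interleaved. Its difference was 0.11 (SE 0.15, 1.08-fold, 95% interval 0.852-fold to 1.37-fold), and it ran from -0.0012 without Merit40-/- replicate 1 to 0.20 without Merit40-/- replicate 2, with 0.036 without WT replicate 2 and 0.20 without WT replicate 3. Both had the adjusted p of 0.999 in limma that holds for all 9 genes.

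Mllt3 (Entrez Gene 70122), whose product keeps active chromatin marks on stem cell genes of human HSCs, had the smallest unadjusted p of the 9 in limma. It read 9.86, 9.64 and 9.48 on the Merit40-/- arrays, against 9.34, 9.34 and 9.54 on the WT arrays. Only Merit40-/- replicate 3 and WT replicate 3 were out of order. The means were 9.66 ± 0.19 in Merit40-/- and 9.41 ± 0.11 in WT (SD, n = 3 each). The difference of 0.26 (SE 0.14, 1.19-fold) was the 1 among the 9 that exceeded the range of its WT arrays, with an unadjusted p of 0.103 (adjusted p = 0.999 in limma). With 1 array left out the difference ran from 0.15 without Merit40-/- replicate 1 to 0.35 without Merit40-/- replicate 3.

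Hmga2 (Entrez Gene 15364) stood lower in Merit40-/- by less than the spread between arrays. It read 7.40, 7.73 and 7.48 on the Merit40-/- arrays, against 7.52, 7.75 and 7.61 on the WT arrays. Each genotype had its highest array in replicate 2, and the ranges overlapped over most of their length. The difference was -0.09 (SE 0.13, 0.941-fold, adjusted p = 0.999 in limma). With 1 array left out it ran from -0.18 without Merit40-/- replicate 2 to -0.02 without Merit40-/- replicate 1, was -0.06 without Merit40-/- replicate 3, -0.14 without WT replicate 1 and -0.03 without WT replicate 2, and was within 1.5 times of the full value only without WT replicate 3.

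The 3 surface and cytoskeletal markers showed no common direction. Procr (Entrez Gene 19124) read 7.96, 8.45 and 8.10 on the Merit40-/- arrays, against 7.96, 8.29 and 8.44 on the WT arrays, so that the Merit40-/- arrays spanned 0.48 units and the WT arrays 0.49. Its difference was -0.06 (SE 0.18, 0.958-fold) and its unadjusted p of 0.738 the largest of the 9 in limma. Fgd5 (Entrez Gene 232237) read 6.67, 6.32 and 6.32 on the Merit40-/- arrays, against 6.24, 6.44 and 6.97 on the WT arrays. Its WT arrays spanned 0.73 units, the widest range of any of the 9 genes in either genotype, and its difference was -0.11 (SE 0.20, 0.925-fold). With 1 array left out, Procr ran from -0.20 (without Merit40-/- replicate 2 or WT replicate 1) and Fgd5 from -0.27 (without WT replicate 1). Without WT replicate 3 both turned, to 0.045 for Procr and 0.097 for Fgd5, and Procr also without Merit40-/- replicate 1, to 0.041. Ctnnal1 (Entrez Gene 54366) read 8.14, 8.23 and 7.94 on the Merit40-/- arrays, against 7.95, 8.06 and 7.77 on the WT arrays, with 2 Merit40-/- arrays above all WT arrays. Its difference was 0.18 (SE 0.13, 1.13-fold), and was 0.098 without WT replicate 3, 0.11 without Merit40-/- replicate 2 and 0.26 without Merit40-/- replicate 3.

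Exact permutation tests of the single genes gave 2-sided p-values of 0.2 for Mecom, Prdm16 and Mllt3, 0.3 for Ctnnal1, 0.4 for Hlf, 0.5 for Hmga2, 0.6 for Meis1, 0.7 for Fgd5 and 1 for Procr. The smallest p that 3 arrays against 3 allow is 0.1, so that this test could not pass 0.05 for any gene.

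Read by array rather than by gene, 2 arrays held most of the extremes. Merit40-/- replicate 1 had the highest value of the 6 arrays for 5 of the 9 genes, Mecom, Hlf, Meis1, Prdm16 and Mllt3, while 16.1% of all genes were highest there. WT replicate 1 had the lowest value for 6 of the 9, against 16.4% of all genes. Relative to the WT means, those 5 genes, grouped after their values were seen, averaged 0.38, 0.09 and 0.10 on Merit40-/- replicates 1, 2 and 3, against -0.11, -0.04 and 0.15 on WT replicates 1, 2 and 3. All 9 genes averaged 0.19, 0.10 and -0.0026 on the Merit40-/- arrays, against -0.13, 0.0014 and 0.13 on the WT arrays, and the genotypes overlapped. The same 2 arrays held extremes of the wider HSC programme: of 33 other long-term HSC genes, 15 were highest on Merit40-/- replicate 1 and 12 lowest on WT replicate 1.

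Without Merit40-/- replicate 1, the array with the muscle markers, the median difference of the 9 genes was 0.061, against 0.15 with all arrays. The mean of those 5 genes was then 0.094, with Mecom at 0.13 and Mllt3 at 0.15. As all 5 were highest on that array, leaving it out could only lower their mean difference. Without WT replicate 1, the median of the 9 was 0.097 and the mean of the 5 genes 0.13. The 5 genes averaged lowest on that array, so this mean too could only fall. Erythroid and megakaryocyte markers were read by array as well. The 9 erythroid markers averaged 6.16, 6.57 and 6.35 on the Merit40-/- arrays, against 7.05, 6.45 and 6.45 on the WT arrays, so that WT replicate 1 was highest and Merit40-/- replicate 1 lowest. The 11 megakaryocyte markers averaged 6.36, 6.53 and 6.49 on the Merit40-/- arrays, against 6.77, 6.79 and 6.65 on the WT arrays. These list means did not overlap between genotypes, and 9 of the 11 markers stood lower in Merit40-/- and 2 higher. None of either list was called in limma. An unadjusted p under 0.05 in limma was found for 2 of the 9 erythroid and 3 of the 11 megakaryocyte markers. All of these stood lower in Merit40-/-, and the share over all genes, in either direction, was 4.22%. The muscle marker with the strongest signal, the troponin gene Tnnt3, read 10.39 on Merit40-/- replicate 1 and 5.22 to 6.38 elsewhere. Of the 12 muscle markers, 7 had a mean above the median gene over the 6 arrays, but not all would without that array. Pvalb was among those that passed only through it, at 9.35 there and 4.06 to 4.74 elsewhere. The part of the erythroid, megakaryocyte and muscle markers in the differences was not tested.

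**Figure D3:**
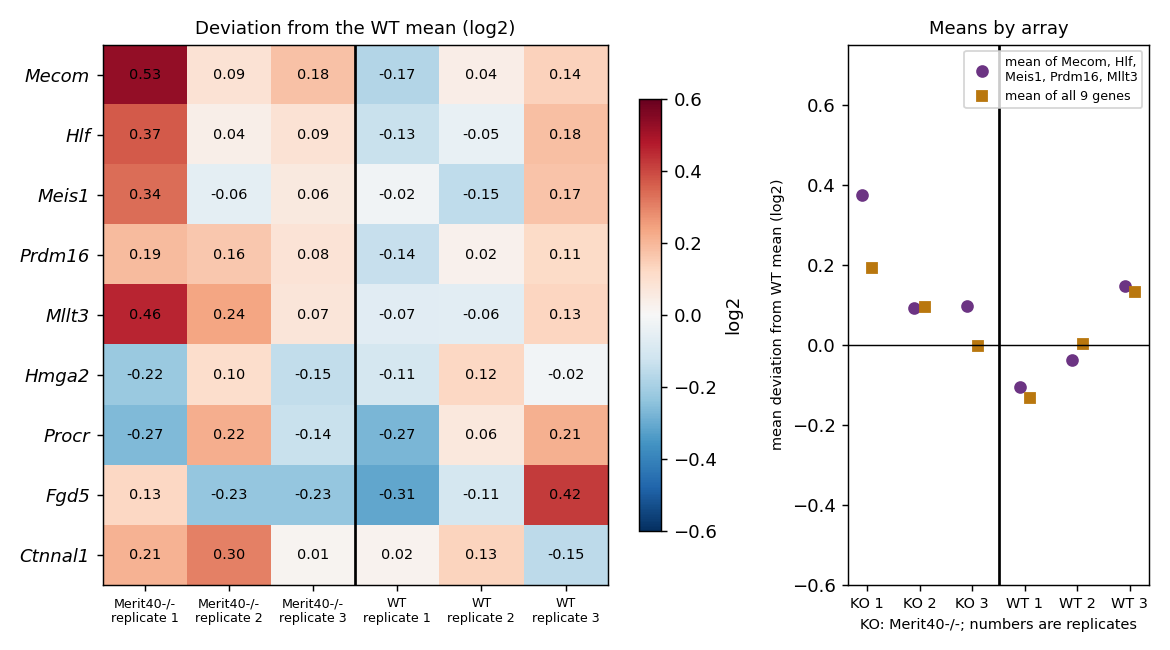
Left, deviation of each gene (rows) from its WT mean on each array (columns), in log2 units, with red above and blue below 0. Right, the mean of these deviations on each array for all 9 genes and for Mecom, Hlf, Meis1, Prdm16 and Mllt3. The 5 genes are highest on Merit40-/- replicate 1 at 0.38 and overlap between genotypes on the other arrays.

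Some of the 9 are also expressed by endothelial cells, so the markers of those cells were read beside them. Of 12 endothelial markers, 9 lay below the median gene, among them the vascular cadherin gene Cdh5, at 3.92 ± 0.36 on Merit40-/- arrays and 3.68 ± 0.05 on WT arrays (SD, n = 3 each), and the VEGF receptor gene Kdr, at 4.31 on both. The list averaged 4.74 to 4.93 on the Merit40-/- arrays, against 4.70 to 4.83 on the WT arrays. On it 8 markers stood higher in Merit40-/- and 4 lower, with a median difference of 0.099, against 0.0052 over all genes. Of the 12, 1 had an unadjusted p under 0.05 in limma, against 4.22% of all genes. That gene was Emcn, the surface sialomucin gene endomucin, which HSCs express too, at 8.34 ± 0.25 on Merit40-/- arrays and 7.89 ± 0.28 on WT arrays (SD, n = 3 each). Its difference of 0.45 (SE 0.19, unadjusted p = 0.0419, adjusted p = 0.999 in limma) was the highest of the list, and its arrays overlapped. The probe set with the strongest signal on the list, that of Tie1, a receptor gene that HSCs also express, averaged 8.37 on Merit40-/- arrays and 8.17 on WT arrays. Sox18, the other marker above the median gene, averaged 5.55 ± 0.28 on Merit40-/- arrays and 5.24 ± 0.40 on WT arrays (SD, n = 3 each). Its difference was 0.31 (SE 0.22). Of 12 progenitor markers 0 were called in limma and 0 had an unadjusted p under 0.05. Of these, 8 stood higher and 4 lower in Merit40-/-, with a median difference of 0.12. The strongest signal among them, that of Cd34, averaged 10.22 on Merit40-/- arrays and 10.06 on WT arrays.

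Other genes of HSC identity gave no calls either. In the heptad of transcription factors that co-occupy stem cell enhancers (Erg, Fli1, Gata2, Lmo2, Lyl1, Runx1 and Tal1), 0 of 7 genes were called in limma, 0 had an unadjusted p under 0.05, and 5 stood higher and 2 lower with a median difference of 0.05. Lyl1 was highest at 0.20 (SE 0.11), and Tal1 lowest at -0.14 (SE 0.15). Of the 33 measured genes on the wider list, which shares its members with the heptad but none with the 9, 0 were called in limma and 0 had an unadjusted p under 0.05. On that list 22 stood higher and 11 lower, with a median of 0.05. Its highest member was Robo4, a guidance receptor gene of HSCs and endothelium, at 0.31 (SE 0.21), and its lowest Gfi1, a repressor gene that restrains HSC cycling, at -0.24 (SE 0.13).

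Relatives and partners of the nuclear regulators were unevenly expressed, and 0 were called in limma. An unadjusted p under 0.05 in limma was found for Meis2 and Lin28a alone, where 4.22% of all genes had one. Of 12 other PRDM genes, 6 stood higher and 6 lower with a median of -0.00070, from 0.10 for Prdm11 to -0.55 (SE 0.25) for Prdm15. Of the bZIP genes related to Hlf, the circadian regulators Dbp and Tef differed by 0.08 and -0.04, and Nfil3, a repressor that competes for the same sites, by -0.06, a median of -0.04. Of 10 TALE homeodomain and HoxA genes that work with Meis1, 7 stood higher and 3 lower, with a median of 0.10. Meis2, the nearest relative of Meis1, read below the median gene, at 4.53 ± 0.27 on Merit40-/- arrays and 4.02 ± 0.11 on WT arrays (SD, n = 3 each), a difference of 0.51 (unadjusted p = 0.0132, adjusted p = 0.999 in limma). Hoxa9, a partner of Meis1 in leukemia and HSCs, averaged 7.91 on Merit40-/- arrays and 7.86 on WT arrays, and the lowest member was Pbx4 at -0.21.

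Of 12 partners of Mllt3 in the super elongation and DOT1L complexes, 5 stood higher and 7 lower with a median of -0.06. The scaffold gene Aff1 was highest at 0.15 (SE 0.11), and the elongation factor gene Ell lowest at -0.27 (SE 0.12, unadjusted p = 0.0583, adjusted p = 0.999 in limma). Of 5 measured genes around Hmga2, Lin28b, whose product blocks let-7 in fetal HSCs, read 2.92 ± 0.22 on Merit40-/- arrays and 2.91 ± 0.25 on WT arrays (SD, n = 3 each), far below the median gene. Its relative Lin28a, also dim, differed by 0.39 (SE 0.15, unadjusted p = 0.0332, adjusted p = 0.999 in limma), and Igf2bp1 was the lowest of the 5 at -0.14. Of these 5, 4 stood higher, with a median of 0.17. Cdkn2a, the Ink4a/Arf locus that Hmga2 restrains in mouse neural stem cells, differed by 0.17 (SE 0.13).

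Among the relatives of the markers, Fgd4 had the highest difference. Fgd4, another exchange factor for CDC42, read 6.09 ± 0.24 on Merit40-/- arrays and 5.40 ± 0.31 on WT arrays (SD, n = 3 each), with no overlap. Its difference of 0.69 (SE 0.19, 1.61-fold) had an unadjusted p of 0.00660 and an adjusted p of 0.999 in limma. Of the 6 genes of this list, Fgd4 was the 1 with an unadjusted p under 0.05 in limma, against 4.22% of all genes. Fgd1 was lowest at -0.26, and Cdc42 itself differed by -0.03 (SE 0.11). The median of the 6 was -0.02, with 2 higher and 4 lower. Of 7 genes of the protein C pathway to which Procr belongs, 6 stood lower, with a median of -0.13 and a lowest value of -0.23 for the thrombin receptor gene F2rl2. Pros1, the gene of the cofactor protein S, was highest at 0.33 (SE 0.21). Of the relatives of Ctnnal1, Ctnna1 differed by 0.06, Ctnna2 by -0.10, Ctnna3 by 0.11 and the vinculin gene Vcl by -0.15, a median of -0.02. On the protein C and catenin lists 0 genes were called and 0 had an unadjusted p under 0.05 in limma.

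**Figure D4:**
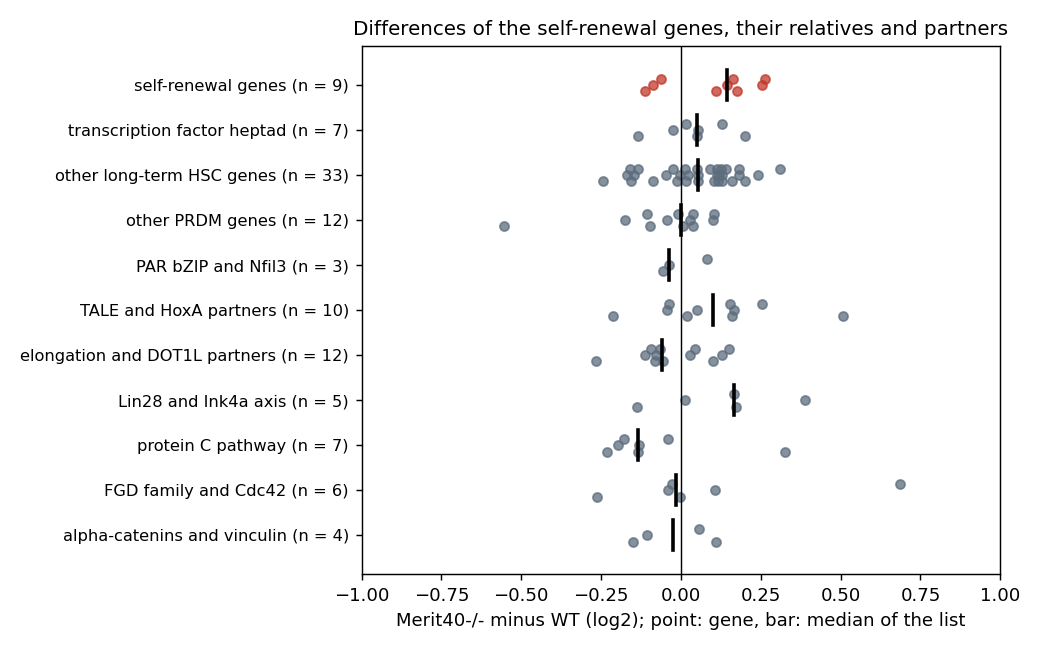
Differences between genotypes (Merit40-/- minus WT, log2, x axis) for the 9 self-renewal genes (red) and for lists of their relatives and partners (grey), 1 point per gene with the median of each list as a bar. The 9 genes lie between -0.11 and 0.26, inside the span of the other lists, whose ends are Prdm15 at -0.55 and Fgd4 at 0.69.

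Fgd5 varied most over the 6 arrays (SD 0.28). By Euclidean distance between mean-centred log2 values over the 6 arrays, the nearest of 10676 named genes at or above the median level were Ap5s1, an adaptor complex subunit, at 0.076, Ctns, the lysosomal cystine transporter, at 0.18, and Supt7l, a coactivator subunit, at 0.19. Like Fgd5, these genes read highest on WT replicate 3, as Ap5s1 did at 6.76. With so many genes and 6 arrays, close profiles arise in any data set, and the likeness is a description.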

How the data were processed

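The deposited log2 values of 25206 probe sets on 6 arrays were made by the authors with RMA, and affy is the other tool named, per the submitters' processing notes. Their versions, the chip definition and the build were not given in the sources used here. RMA puts all arrays on 1 distribution, so a shift in total RNA would not show. The platform's gene table gave a single symbol for 23185 probe sets, and the other 2021 were left out, with any list gene that only they measure.

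A 2-sided moderated test of genotype, with no other term and no filter, was run over the 23185 named genes in limma 3.58.1 (lmFit, eBayes; R 4.3.3), with Benjamini-Hochberg adjustment, a threshold of 0.05 and 95% intervals. The procedure was tested on simulated data. Alternatives tried were the replicate number as a block, a variance prior with intensity trend, array weights, 2 scalings, 2 filters on dim genes, an unmoderated test, an adjusted threshold of 0.1 and each array left out in turn.

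Members and lists were chosen with earlier results of these data known. The rule for named genes takes the 9 members, Babam1, the highest and lowest member of each list of relatives and partners (all where a list has 4 or fewer), the sort genes, the marker with the strongest signal of a list, and the 3 genes nearest to the most variable member. It leaves out predicted loci and small RNA genes among the nearest. Other genes, among them Hoxa9, Cdc42, Lin28b, Cdkn2a, Cdh5, Kdr, Sox18, Itgam, Cd48, Emcn, Csf1r and the granule genes, were named after their values were seen. Single genes were also compared with exact permutation tests, and start windows came from RefSeq (GRCm38.p6).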

Additional observations from a re-analysis of the deposited data

How the results depend on the processing

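With 3 arrays per genotype, no member passed the test, and 0 of 9 were called under any of the 15 alternatives run. Without Merit40-/- replicate 3, Mllt3 alone of the 9 had an unadjusted p under 0.05, as had 4.64% of all genes (0.0472; 0.986 was its lowest adjusted p in limma under any alternative). The count of genes called was 1 throughout except in the unmoderated per-gene test. That test takes each gene's spread from its own arrays alone, and it called 0 genes (990 at an unadjusted p under 0.05). The median difference of the 9 members was 0.13 to 0.16 under the other settings and 0.061 to 0.20 with 1 array left out, lowest without Merit40-/- replicate 1 and highest without WT replicate 3. Signs turned for 3 genes, none of them called. Meis1 was at -0.0012 and Procr at 0.041 without Merit40-/- replicate 1, and Procr at 0.045 and Fgd5 at 0.097 without WT replicate 3, where their full ranges with 1 array left out were -0.0012 to 0.20, -0.20 to 0.045 and -0.27 to 0.097; the cause was not tested. Without WT replicate 3, 8 members stood higher and 1 lower; without any other single array, 6 and 3. This count was added after the arrays had been seen. The replicate numbers share only a number: deviations from the genotype means correlated by -0.048, -0.0027 and 0.044 over genes between same-numbered arrays. With the number as a replicate block the count of genes called was 1 and that of members 0, while the differences (Mecom 0.26) cannot change in a balanced design.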

Other observations

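Neutrophil genes gave strong signals in the sorted cells of both genotypes. S100a8 and S100a9, which encode the calcium-binding proteins of neutrophil cytoplasm, averaged 11.94 ± 0.21 and 11.99 ± 0.22 on Merit40-/- arrays, and 12.04 ± 0.06 and 12.05 ± 0.03 on WT arrays (SD, n = 3 each), levels at or above those of 99.9% of named genes. The granule genes Ngp and Camp averaged 10.81 and 10.02 on Merit40-/- arrays, and 10.79 and 10.15 on WT arrays. Of 11 granulocyte and monocyte markers 10 lay above the median gene, the exception being Csf1r at 4.40 on Merit40-/- arrays and 4.38 on WT arrays. Ctsg, a protease gene of primary granules, averaged 7.27 ± 0.49 on Merit40-/- arrays and 6.35 ± 0.37 on WT arrays (SD, n = 3 each). Its difference was 0.92 with overlapping arrays (unadjusted p = 0.00945, adjusted p = 0.999 in limma). Ctsg was the 1 of the 11 with an unadjusted p under 0.05 in limma, against 4.22% of all genes. Elane averaged 7.11 on Merit40-/- arrays and 6.55 on WT arrays, and Mpo, the peroxidase gene of the same granules, 8.61 on Merit40-/- arrays and 8.36 on WT arrays (unadjusted p = 0.214 for Elane and 0.393 for Mpo in limma). In the gate's excluded antigens, Ly6g averaged 6.99 ± 0.65 on Merit40-/- arrays and 6.18 ± 0.27 on WT arrays (SD, n = 3 each), a difference of 0.81 (unadjusted p = 0.0290, adjusted p = 0.999 in limma). The source of these signals was not tested.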
